A study of Homo sapiens with 6 samples.

Results

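The genes of oxidative phosphorylation were followed in glioblastoma-derived KNS42 cells after knockdown of the RNA-binding protein MSI1. The members were the protein-coding rows of the expression table whose symbols begin with NDUFA, NDUFB, NDUFC, NDUFS, NDUFV, UQCR, COX4 to COX8 or ATP5, the rows SDHA to SDHD, CYC1 and CYCS, and the protein-coding rows of the mitochondrial genome. This rule gave 113 of the 58174 rows, of which 100 lie in the nuclear genome and 13 in the mitochondrial genome. Symbols are those of the table, and current names follow in brackets where they differ. The rule goes by name, so it also takes in 8 complex I assembly factors and a few rows that are not subunits.

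The series holds 6 libraries of polyadenylated RNA from KNS42, an established line grown as adherent cells with serum. In 3 libraries (siC) the cells had received a control siRNA and in 3 (siMSI1) a pool of siRNAs against MSI1, and all were harvested 72 h after transfection. No other treatment or allele separates the groups. The labels do not say whether the libraries of a group came from separate transfections, so p-values measure the spread between these libraries, which may be technical. Since bulk RNA was sequenced, fewer cells expressing a gene and less of its RNA per cell cannot be told apart.

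Oxidative phosphorylation takes place in the inner mitochondrial membrane. Complexes I and II pass electrons from NADH and succinate to coenzyme Q, complex III hands them on to cytochrome c, and complex IV transfers them to oxygen. Complexes I, III and IV pump protons during this transport, and complex V, the ATP synthase, uses the proton gradient to make ATP. Complexes I, III, IV and V are assembled from subunits of both genomes, whereas complex II and cytochrome c are wholly nuclear. Glioblastoma cells are known for strong glycolysis, yet they keep a working respiratory chain.

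The labels were first checked by the targeted gene. MSI1 stood at 63.7, 61.9 and 66.9 FPKM (fragments per kilobase of gene, scaled to the reads of the library) in siC and only 12.1, 12.3 and 11.2 FPKM in siMSI1. The groups lay far apart, with a log2 difference of -2.43 (SE 0.067, adjusted p = 8.7e-06, limma). Reads on genes numbered 14448513 to 18024080 in the siC libraries and 13087025 to 14700593 in the siMSI1 libraries, and the first principal component separated the groups. Of 8 glial and neural stem markers, 5 were tested. GFAP, an astrocyte filament protein, rose (log2 1.46), FABP7, a radial glia fatty acid binding protein, fell (log2 -1.12), and OLIG2 and S100B were listed at 0. SYP, a synaptic vesicle protein, fell (log2 -0.53) as 1 of 2 neuron markers tested, a call lost without siC replicates 1, 2 or 3 or siMSI1 replicate 1 (-0.56 to -0.46). The 8 glial and neural stem markers summed to 1400 to 1470 FPKM in siC and 1160 to 1260 FPKM in siMSI1. The summed level of the 5 neuron markers was 20.6 to 21.4 FPKM in siC and 14.4 to 15.5 FPKM in siMSI1, with RBFOX3 listed at 0. The 6 immune and endothelial markers summed to at most 0.976 FPKM in any library. How far the shift in glial and neuronal markers bears on the members was not tested.

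All 13 mitochondrially encoded members were listed at 0 in all 6 libraries. These are MT.ND1, MT.ND2, MT.ND3, MT.ND4, MT.ND4L, MT.ND5 and MT.ND6 of complex I, MT.CYB of complex III, MT.CO1, MT.CO2 and MT.CO3 of complex IV, and MT.ATP6 and MT.ATP8 of complex V. The 2 ribosomal and 22 transfer RNA rows of the mitochondrial genome were listed at 0 as well, which makes 37 of 37 rows. Every respiring cell transcribes these genes, so the listing tells nothing of their level in KNS42. The comparison of nuclear with mitochondrial members, and the ratio between them, could therefore not be made. Everything reported on differences concerns the nuclear members.

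Reads did lie on nuclear copies of the mitochondrial genes. The nuclear genome carries many stretches of old mitochondrial DNA, and 392 pseudogene rows of the table are named as copies of mitochondrial protein genes. A single stretch on chromosome 1 (chr1:629062-634922, GRCh38) holds 7 of these rows and 99.8% of their summed FPKM. The copies there matched their mitochondrial parents at 97.6% to 99.1% of the aligned bases. MTATP6P1 and MT.ATP6 differed at 10 of 681 aligned bases. The 60 bases of MTATP6P1 with the most differences (chr1:633811-633870, plus strand, GRCh38) are set above the same bases of MT.ATP6 (chrM:8642-8701, plus strand). Both were read from the reference genome, with the 3 differing bases in capitals.
MTATP6P1: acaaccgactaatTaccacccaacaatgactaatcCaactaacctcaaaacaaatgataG
MT.ATP6: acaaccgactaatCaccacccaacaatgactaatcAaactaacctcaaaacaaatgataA

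MTATP6P1 held 10988, 13188 and 10363 reads in siC and 9769, 8108 and 10900 reads in siMSI1. Its level, 1070 FPKM ± 9.79 in siC and 999 ± 105 in siMSI1 (SD, n = 3), lay above that of every nuclear member. MTND2P28 stood at 298 FPKM ± 10.6 in siC and 341 ± 48.2 in siMSI1, and MTCO1P12 at 108 ± 6.32 and 109 ± 16.8. The remaining copies stood far lower, and MTATP8P1 was listed at 0 throughout. The groups overlapped in all 7 rows. None was past the threshold, with log2 differences from -0.10 (MTATP6P1, adjusted p = 0.42) to 0.61 (MTCO3P12, adjusted p = 0.13). Whether these reads came from the nuclear copies or from mitochondrial transcripts was not tested.

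**Figure D1:**
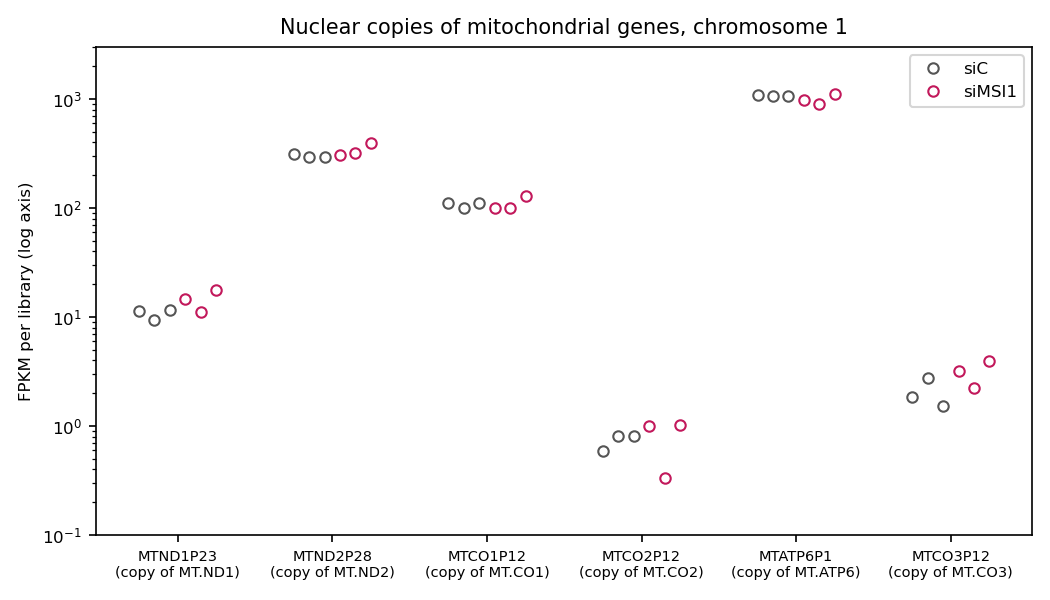
Level of 6 nuclear copies of mitochondrial genes on chromosome 1 in each library (FPKM, log axis; grey circles siC, pink circles siMSI1). MTATP6P1 lies between 908 and 1110 FPKM while its mitochondrial parent is listed at 0, and the groups overlap in every copy. MTATP8P1, listed at 0, is not drawn.

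Of the 100 nuclear members, 89 had a mean of at least 0.5 FPKM and were tested, and the other 11 are described further on. The test was limma on log2(FPKM + 0.1), with p adjusted over all 15069 tested genes and a threshold of 0.01. Differences are therefore on the log2(FPKM + 0.1) scale, siMSI1 minus siC, and understate the change of low genes. Past the threshold were 7 of 89 members (7.87%), against 11.0% of all tested genes. Of these, 3 rose, NDUFAF1 and SDHB among them, where 5.15% of all genes did, and NDUFC2, COX7A2L, ATP5B and ATP5SL fell, where 5.83% of all genes did. At an adjusted p of 0.05 the members numbered 13 (14.6%), against 25.1% of all genes. The share of members called was thus below the background at both thresholds, and no test of this difference was made. The 3 of 7 calls that were higher became 5 of 9 when FPKM were scaled by the plain sum of reads, without the authors' library factor, and 9 of 13 with the GC trend removed. The count was 1 of 89 without siC replicate 1, 2 without siC replicate 2, 2 without siC replicate 3 and 4 without siMSI1 replicate 1, and the share of all genes called then lay between 3.5% and 5.61%.

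Among the members, 56 of 89 had a log2 difference above 0 (62.9%, against 50% of all tested genes), and their median was 0.084 against 0.000 for all genes. Without siMSI1 replicate 3 the median was 0.047. Within the siMSI1 group, the median member lay 0.121 and 0.102 above its siC mean in libraries 2 and 3, on the log2 scale, and 0.008 below it in library 1 (-0.008). The summed FPKM of the nuclear members was 5870, 5800 and 6040 in siC and 5740, 6330 and 6380 in siMSI1, so the groups overlapped. Groups did not overlap in 39 members (43.8%), 28 of them higher and 11 lower in siMSI1, against 42.8% of all tested genes. The split by direction was not counted over all tested genes, so that of the members has no background. Members tended to be short, and gene length moved with the difference in the whole table. The median log2 difference was 0.067 in the shortest of 4 equal length classes of all tested genes and -0.039 in the longest. Of the 89 tested members, 31 fell in the shortest class, where their median was 0.097 against 0.057 for protein-coding genes, and 33 in the next, with 0.124 against 0.016. With the trend of length removed from each library, the median of the members was 0.078.

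**Figure D2:**
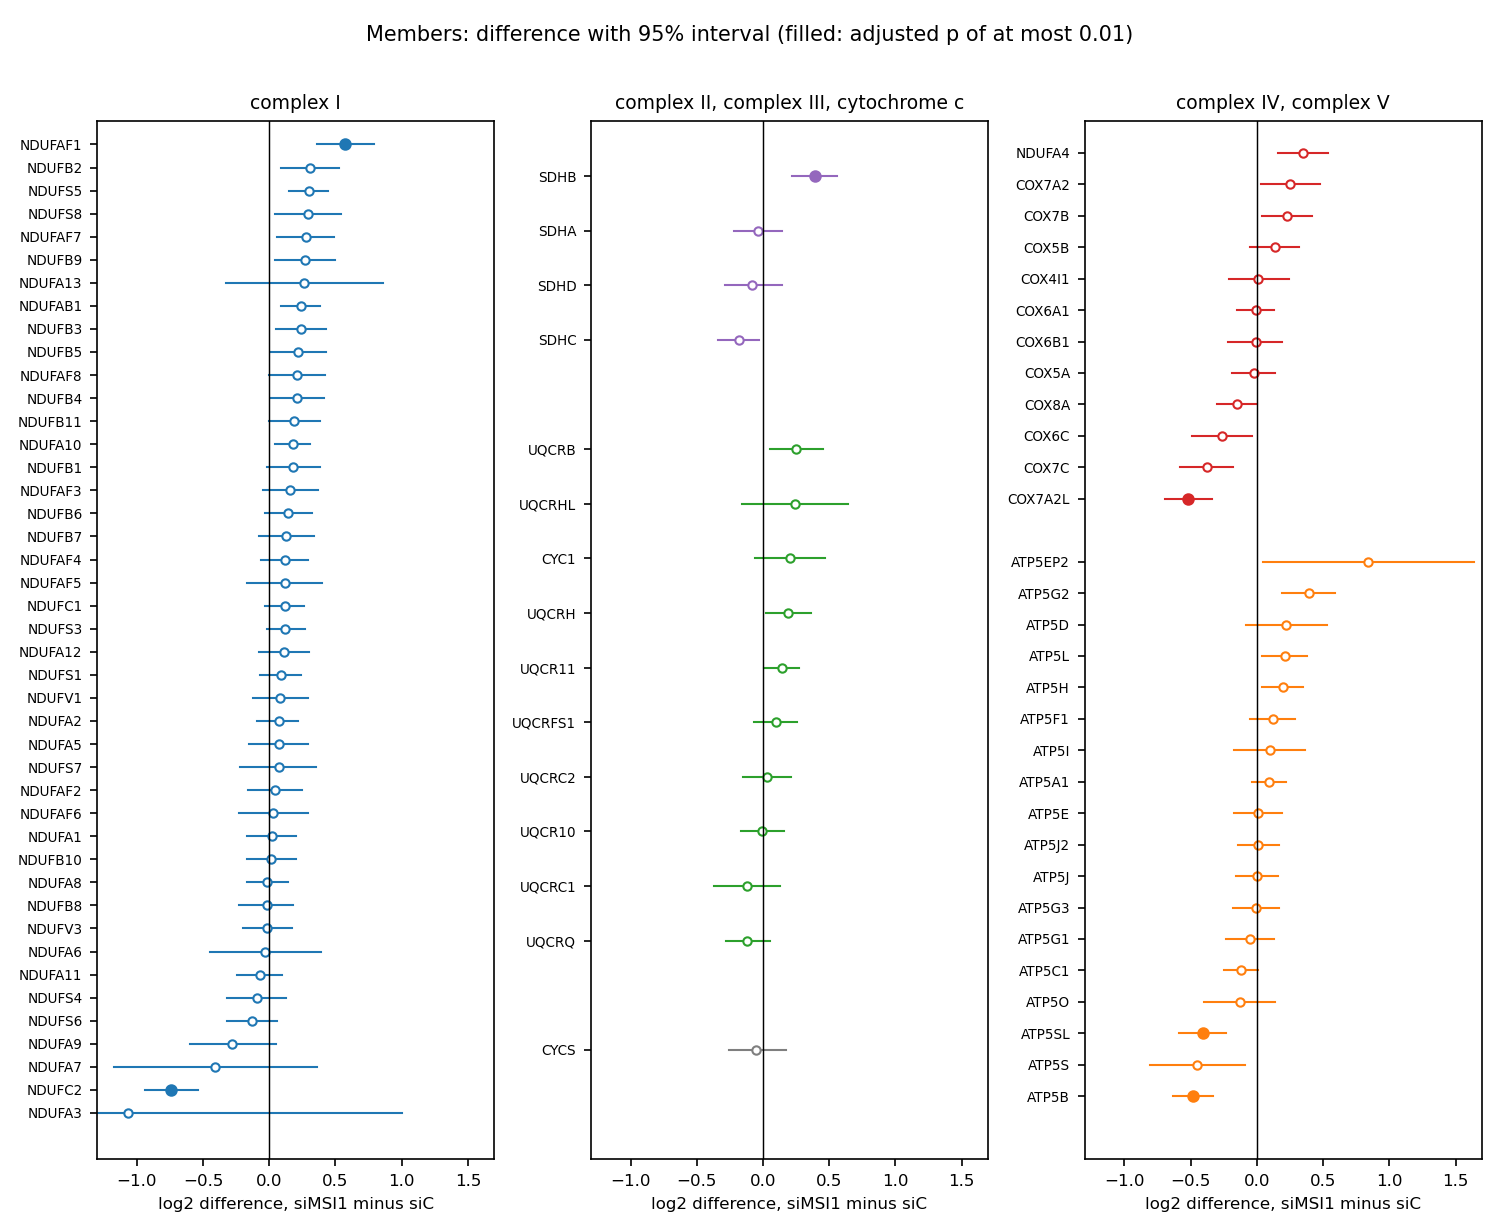
Log2 difference (siMSI1 minus siC) of 88 tested nuclear members with the 95% interval, one row per gene, grouped by complex and ordered by size, with filled circles for an adjusted p of at most 0.01. Most circles lie within 0.25 of 0 (65 of the 89 tested members), and 6 are filled. The interval of NDUFA3 runs past the left edge.

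Complex I, the NADH dehydrogenase, has the most members. Of 44 tested, 33 lay above 0, with a median of 0.115, and 3 were past the threshold (6.82%). NDUFC2, an accessory subunit of the membrane arm, had the largest fall among the called members. It stood at 52.1, 49.2 and 49.9 FPKM in siC, against 26.6, 32.6 and 31.4 FPKM in siMSI1. The level in siMSI1 was thus 60% of that in siC, with no overlap and a log2 difference of -0.74 (SE 0.087, adjusted p = 0.0012). This call held in all 20 alternative fits that kept the threshold. NDUFC2 lies at chr11:78068297-78079862 on the minus strand. Its exons share 18.6% of their length with the readthrough row NDUFC2.KCTD14 on the same strand, which is a member by name and was listed at 0 in every library. How reads on the shared exons were assigned is not given in the sources used here. NDUFC1, its partner subunit in name, had a log2 difference of 0.12 (adjusted p = 0.23).

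NDUFAF1, an assembly factor for the membrane arm of complex I and no subunit of the finished enzyme, stood at 11.8, 12.0 and 13 FPKM in siC, against 17.2, 20.8 and 17.0 FPKM in siMSI1. It rose without overlap by a log2 difference of 0.57 (SE 0.094, adjusted p = 0.0046). It had 316 to 489 reads per library, against 1039 to 2359 for NDUFC2. The call was lost without any one of siC replicates 1, 2 and 3 or siMSI1 replicate 1, where the adjusted p was between 0.012 and 0.025 and the difference between 0.55 and 0.62. It was also lost with no filter on low genes (adjusted p = 0.017) and with plain variance moderation (0.018). All 8 assembly factors named NDUFAF had differences above 0, from 0.03 to 0.57, with only NDUFAF1 past the threshold. The smallest of these differences turned below 0 in some alternative fits, to -0.05 at the lowest.

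The accessory NDUFB subunits, which form the far end of the membrane arm, lay to the same side without a call. Of 11 tested, 10 had a difference above 0, with a median of 0.191, and none was past the threshold. The exception was NDUFB8 at -0.02, which turned to 0.05 without siC replicate 2. The family was singled out after its values were seen. NDUFB2 had the largest value, at 0.31 (SE 0.095, adjusted p = 0.047). NDUFS5, an accessory subunit in the intermembrane space, was the most abundant member of all. It stood at 536, 546 and 558 FPKM in siC, against 653, 697 and 666 FPKM in siMSI1. The groups did not overlap, but the log2 difference of 0.30 (SE 0.062) narrowly missed the threshold with an adjusted p of 0.012. NDUFS5 passed in 4 of 20 alternative fits that kept the threshold. Among these were FPKM scaled by the plain sum of reads on genes outside the mitochondrial genome (adjusted p = 0.0064) and removal of the GC trend (adjusted p = 0.0015).

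**Figure D3:**
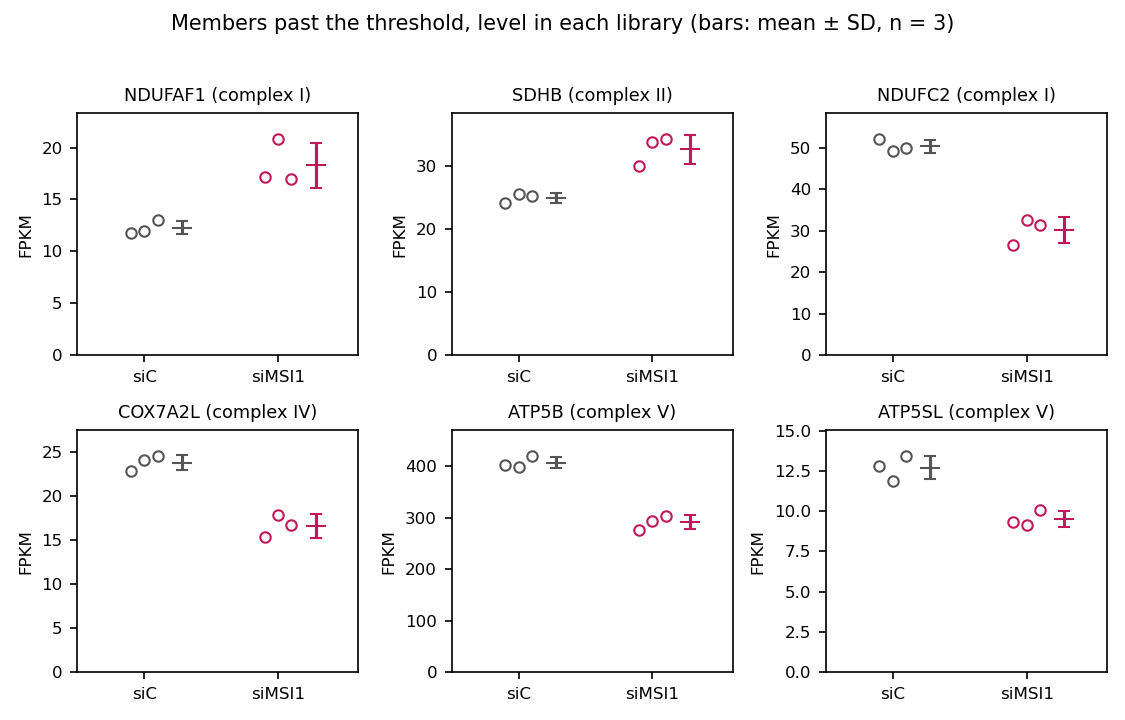
Level of 6 members past the threshold in each library (FPKM, axes from 0; circles are libraries 1 to 3, bars the mean ± SD, n = 3). NDUFAF1 and SDHB are higher and NDUFC2, COX7A2L, ATP5B and ATP5SL lower in siMSI1, each without overlap between the groups.

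Complex II, succinate dehydrogenase, is also an enzyme of the TCA cycle. SDHB, its iron-sulfur subunit (chr1:17018664-17054032, minus strand), stood at 24.1, 25.6 and 25.3 FPKM in siC, against 30.1, 33.8 and 34.3 FPKM in siMSI1. It rose without overlap by a log2 difference of 0.39 (SE 0.072, adjusted p = 0.0078). The other 3 subunits lay slightly below 0. SDHA, the flavoprotein and the most abundant of the 4, had a difference of -0.04 (adjusted p = 0.73), and SDHC, a membrane anchor, had -0.18 (adjusted p = 0.083). Whether SDHB differs from the other subunits was not tested. The SDHB call was lost without siC replicates 1, 2 or 3 or siMSI1 replicates 2 or 3, with adjusted p from 0.014 to 0.044 and differences from 0.35 to 0.40. It was also lost with no filter on low genes (adjusted p = 0.022) and with plain variance moderation (0.025).

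None of the 10 members of complex III passed the threshold, and their differences ran from -0.12 to 0.25. UQCR10, an accessory subunit and the most abundant of them, stood at 181 FPKM ± 7.89 in siC and 181 ± 10.2 in siMSI1 (SD, n = 3), a log2 difference of -0.01. CYCS, the mobile electron carrier cytochrome c, stood at 87.1 ± 6.63 and 84.4 ± 8.23 FPKM (log2 -0.05, adjusted p = 0.74).

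In complex IV, cytochrome c oxidase, 12 of 19 members were tested and only COX7A2L fell past the threshold. COX7A2L is known to link complexes III and IV into supercomplexes and is no subunit of the single enzyme. It stood at 22.8, 24.1 and 24.5 FPKM in siC, against 15.3, 17.9 and 16.7 FPKM in siMSI1. The fall had no overlap, with a log2 difference of -0.52 (SE 0.077, adjusted p = 0.0032). The gene lies at chr2:42333546-42425088 on the minus strand. Its call was lost without siC replicates 1, 2 or 3 or siMSI1 replicate 1, with adjusted p of 0.012 to 0.015 and differences from -0.55 to -0.46. It was also lost with no filter on low genes (adjusted p = 0.012) and with plain variance moderation (0.014).

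The 11 tested subunits of complex IV gave no call in either direction, with a median of -0.013. COX8A, the most abundant of them, stood at 448 FPKM ± 13.3 in siC and 404 ± 18.0 in siMSI1 (log2 -0.15, adjusted p = 0.14). The value closest to the threshold among the lower subunits, singled out after it was seen, was that of COX7C. It stood at 103, 111 and 109 FPKM in siC, against 76.0, 93.2 and 80.3 FPKM in siMSI1, with no overlap (log2 -0.38, adjusted p = 0.017). Without siMSI1 replicate 2 its adjusted p was 0.0082, with a difference of -0.46. COX7C passed in 5 of 20 alternative fits that kept the threshold. NDUFA4, named for complex I and now counted to complex IV, stood at 73.0, 80.1 and 76.8 FPKM in siC, against 91.7, 109 and 93.1 FPKM in siMSI1. It too missed the threshold in spite of separate groups (log2 0.35, SE 0.083, adjusted p = 0.020). NDUFA4 passed in 4 of 20 alternative fits that kept the threshold.

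Several subunits of complex IV come as a general form and a form restricted to tissues such as muscle, lung or testis. In the table the reads lay on the general forms. COX4I1, COX6A1, COX6B1 and COX8A had means of 78.6, 98.0, 199 and 448 FPKM in siC. Their partners COX4I2, COX6A2 and COX8C were listed at 0 in all libraries, and COX6B2 did not pass 0.0364 FPKM. COX7A2 and COX7B stood at 160 and 38.5 FPKM in siC, against 0.214 FPKM for COX7A1 and a listing at 0 for COX7B2. NDUFA4L2, a paralog of NDUFA4 that hypoxia induces, reached at most 0.496 FPKM. Since mitochondrial genes are listed at 0 too, such listings are not read as absence. For orientation, 3 reads on a gene of 2 kilobases are 0.0829 to 0.114 FPKM in these libraries. The general forms did not change past the threshold, with log2 differences of 0.01 for COX4I1, -0.01 for COX6A1, -0.01 for COX6B1, 0.25 for COX7A2 and 0.23 for COX7B. The 7 restricted forms were too low to be tested. The other members below 0.5 FPKM, besides NDUFV2 described further on, were the readthrough rows NDUFC2.KCTD14 and ATP5J2.PTCD1, at 0 and a mean of 0.425 FPKM, and ATP5L2, a copy of a membrane subunit gene of complex V, at 0.0694 FPKM.

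**Figure D4:**
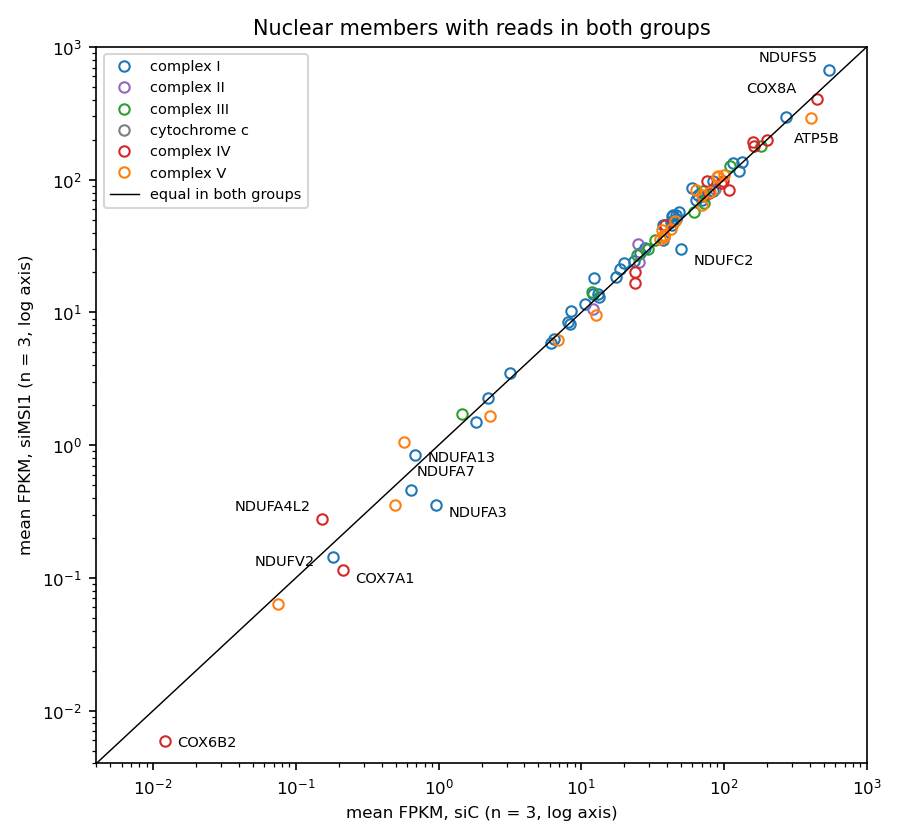
Mean level of the nuclear members in siC (x axis) and siMSI1 (y axis), in FPKM on log axes, coloured by complex, with a line where both groups are equal (n = 3 per group). Most members lie near the line, and a few named members of complexes I and IV, such as NDUFV2, COX7A1 and COX6B2, lie below 1 FPKM. Members listed at 0 in a group are not drawn.

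In complex V, ATP synthase, 18 of 20 members were tested. ATP5B (ATP5F1B), the catalytic beta subunit, stood at 403, 399 and 419 FPKM in siC, against 276, 294 and 304 FPKM in siMSI1. Its level in siMSI1 was 71.7% of that in siC, a fall with no overlap (log2 -0.48, SE 0.065, adjusted p = 0.0021). ATP5B lies at chr12:56638175-56645984 on the minus strand and had 8955 to 16751 reads per library, so counting error was small. The call was lost without siC replicates 1, 2 or 3, with adjusted p of 0.011 to 0.017 and differences from -0.50 to -0.46. With plain variance moderation the adjusted p was 0.010, just above the threshold before rounding. Its partner in the catalytic head, the alpha subunit ATP5A1 (ATP5F1A), stood at 45.0, 46.2 and 45.7 FPKM in siC, against 48.0, 49.3 and 48.1 FPKM in siMSI1 (log2 0.09, adjusted p = 0.30). FPKM here divides by the length of all exons of a gene, 10908 bases for ATP5A1 and 2322 bases for ATP5B, so the gap between the levels of both genes depends on that length.

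ATP5SL (DMAC2) fell from 12.8, 11.9 and 13.4 FPKM in siC to 9.32, 9.14 and 10.1 FPKM in siMSI1. The groups did not overlap (log2 -0.41, SE 0.076, adjusted p = 0.0076), and the gene lies at chr19:41431318-41440717 on the minus strand. In spite of its symbol it is an assembly factor of complex I and no subunit of ATP synthase. Its relative ATP5S (DMAC2L) had a log2 difference of -0.45 at 1.98 FPKM (adjusted p = 0.070). The ATP5SL call was lost without siC replicates 1, 2 or 3 or siMSI1 replicates 1 or 2, where adjusted p was 0.014 to 0.039 and the difference -0.46 to -0.37. It was also lost with median centring (adjusted p = 0.013), with no filter on low genes (0.022) and with plain variance moderation (0.021).

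The c ring, the rotor through which protons pass, is made of one protein that 3 genes encode. ATP5G2 (ATP5MC2) stood at 62.8, 59.9 and 68.6 FPKM in siC, against 76.9, 82.0 and 92.4 FPKM in siMSI1. Its groups did not overlap, and the log2 difference of 0.39 (SE 0.088) missed the threshold with an adjusted p of 0.016. ATP5G2 passed in 6 of 20 alternative fits that kept the threshold. ATP5G1 (ATP5MC1) and ATP5G3 (ATP5MC3) had differences of -0.05 (adjusted p = 0.67) and -0.01 (adjusted p = 0.96), with overlapping groups. Whether the 3 genes differ from each other was not tested. The 7 stalk and membrane subunits had differences between -0.13 and 0.21, none past the threshold. The highest difference among all tested members, 0.84 (SE 0.342, adjusted p = 0.11), belonged to ATP5EP2, a copy of the epsilon subunit gene with a mean of only 0.807 FPKM.

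Some subunits of complex I were nearly without reads. NDUFV2, a core iron-sulfur subunit, stood at 0.0739, 0.245 and 0.231 FPKM in siC, against 0.150, 0.253 and 0.0257 FPKM in siMSI1, while NDUFV1, which binds NADH beside it, stood at 70.9 FPKM in siC. NDUFA7, NDUFA3 and NDUFA13 had means of 0.547, 0.662 and 0.762 FPKM over all libraries. Their differences of -0.41, -1.07 and 0.26 had standard errors of 0.329, 0.894 and 0.257 and did not pass the threshold. The annotation places other rows on the same strand over NDUFV2, NDUFA7 and NDUFA13. AP005263.1, over NDUFV2, had no reads, and YJEFN3, over NDUFA13, had 32 to 89 per library. Why these 4 rows are low was not tested, and their levels should not be read as absence of the subunit.

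The table holds 195 rows named as pseudogenes of 46 members, of which 13 had a mean of at least 0.5 FPKM. For 6 members they took more than 1% of the reads on the member and its pseudogenes together, the largest share being 32.2% for NDUFV2, whose own level was 0.163 FPKM. Next came UQCRFS1 with 5.74%, SDHA with 5.58% and COX6A1 with 5.42%. None of the 7 called members was among these 6. Reads that the counting could not place between a gene and a near-identical copy leave the values of these members uncertain.

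Promoters of respiratory genes are known for sites of the factors NRF1 and GABP, which tie the subunits to a shared programme. RefSeq promoters (GRCh38.p14, 250 bases before to 50 after the start) were found for 77 of the nuclear members. The NRF1 core GCATGCGC, on either strand, lay in 22.1% of these and in 3.68% of all 27305 genes with a promoter. These 27305 genes were not limited to those expressed in KNS42, and expressed genes alone were not taken as a background. The ETS core CCGGAAG, which GABP can bind, lay in 28.6% against 12.2%, and the YY1 core AAGATGGC in 16.9% against 3.52%. Among the 7 called members, 4 had an entry (SDHB, NDUFAF1, COX7A2L and ATP5SL), and of these 4 only SDHB had these letters. NDUFC2 and ATP5B had no entry. Its promoter is shown for this reason, from 215 to 107 bases before the start (chr1:17054139-17054247, minus strand, GRCh38.p14), with the NRF1 and ETS cores in capitals.
SDHB: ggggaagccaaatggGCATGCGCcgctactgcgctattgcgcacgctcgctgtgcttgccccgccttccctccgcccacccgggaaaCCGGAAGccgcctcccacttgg

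Members with the NRF1 core had a median log2 difference of 0.067 (17 tested) and those without it 0.085 (54 tested). For the ETS core the medians were 0.106 (22 tested) and 0.043 (49 tested), for the YY1 core -0.028 (13 tested) and 0.092 (58 tested). These are descriptions of letters in a window, not of binding. The factors themselves did not change past the threshold. YY1 stood at 18.7 FPKM ± 1.54 in siC and 16.5 ± 0.717 in siMSI1, without overlap (log2 -0.18, adjusted p = 0.14). NRF1 stood at 6.66 FPKM ± 0.143 in siC and 6.30 ± 0.316 in siMSI1 (log2 -0.08, adjusted p = 0.48). GABPA, the DNA-binding part of GABP, stood at 6.39, 6.84 and 5.53 FPKM in siC, against 4.94, 5.00 and 3.90 FPKM in siMSI1, without overlap but with an adjusted p of 0.041 (log2 -0.43). The coactivator PPARGC1A and the nuclear receptor ESRRA had differences of 0.00 (adjusted p = 1) and 0.13 (adjusted p = 0.27). Of 11 regulators tested, none was past the threshold, and their median was 0.001.

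The genes around the members were taken from lists, each read beside the 11.0% of all tested genes called. Of 6 other partners of ATP synthase, 3 were past the threshold. ATPAF1, the chaperone that binds the beta subunit, fell from 12.7, 13.2 and 13 FPKM in siC to 7.06, 8.63 and 7.29 FPKM in siMSI1 (log2 -0.76, SE 0.089, adjusted p = 0.0012). ATPIF1, the inhibitor that binds the catalytic head when the proton gradient fails, fell from 33.1 FPKM ± 1.35 to 23.7 ± 1.5 (log2 -0.48, adjusted p = 0.0030). ATPAF2, the chaperone of the alpha subunit, rose from 3.26 FPKM ± 0.169 to 4.70 ± 0.353 (log2 0.51, adjusted p = 0.0081). The ATPAF1 call held in all 20 alternative fits that kept the threshold, those without any one library among them. In the same fits the ATPIF1 call held in 13 and the ATPAF2 call in 12. That of ATPIF1 was lost without siC replicates 1, 2 or 3 or siMSI1 replicates 1 or 2 (log2 -0.53 to -0.45 over the 6 fits), and that of ATPAF2 without any one of the 6 libraries (0.47 to 0.57). The beta subunit gene and its chaperone both had lower levels in siMSI1. The alpha chaperone was higher, and ATP5A1, chosen after its values were seen, was not past the threshold. Whether the beta and alpha genes differ was not tested.

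Of 8 complex I assembly genes outside the naming rule, only TIMMDC1 passed the threshold, rising from 24.1, 26.1 and 25.4 FPKM to 37.2, 42.8 and 33.6 FPKM (log2 0.58, SE 0.094, adjusted p = 0.0044). TIMMDC1, like NDUFAF1, acts in building the membrane arm. The other genes of this list lay on both sides of 0, from -0.18 to 0.27. ATP5SL, also an assembly factor of complex I, fell (log2 -0.41). Whether assembly genes differ as a set was not tested. Among 31 assembly genes of complexes II to IV, 4 rose and 1 fell, with a median of 0.179. COX20 and COX19, which help to mature the copper-bearing core of complex IV, rose by 0.60 and 0.54 (adjusted p = 0.0029 and 0.0039). HIGD1A, a hypoxia-inducible partner of complex IV, fell by 0.63 on the log2 scale (adjusted p = 0.0032). Exons of HNRNPU on the opposite strand cover 76.6% of the exon length of COX20. Exons of ADAP1 on the same strand cover 17.7% of that of COX19. How reads on these stretches were assigned is not given in the sources used here. Of 20 alternative fits that kept the threshold, the TIMMDC1, COX20 and COX19 calls held in 14 each and the HIGD1A call in 15. The TIMMDC1 call was lost without siC replicates 1, 2 or 3 or siMSI1 replicate 1, with differences of 0.55 to 0.60. The COX20 call was lost without siC replicates 1 or 3 or siMSI1 replicates 1 or 2 (0.53 to 0.61), that of COX19 without any one library but siMSI1 replicate 3 (0.49 to 0.57), and that of HIGD1A without siC replicates 1 or 3 or siMSI1 replicate 2 (-0.68 to -0.65).

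Mitochondrial ribosomal proteins, which make the 13 mitochondrially encoded subunits, had 6 genes higher and 1 lower of 77 tested, with a median of 0.171. MRPS14 rose from 13.9 FPKM ± 0.308 to 24.4 ± 1.94 (log2 0.80, SE 0.075, adjusted p = 0.00055), MRPL30 by a log2 difference of 0.63 (adjusted p = 0.0022) and MRPS7 by 0.44 (adjusted p = 0.0029). The MRPL30 call was lost without siC replicate 1 (0.62). The MRPS7 call was lost without siC replicates 1 or 2 or siMSI1 replicate 2 (0.41 to 0.43). Of 20 alternative fits that kept the threshold, the MRPL30 call held in 18 and the MRPS7 call in 16. Of 28 genes of mitochondrial DNA and RNA handling none was past the threshold, with a median of 0.146. TFAM, which packages mitochondrial DNA, had a difference of -0.07 (SE 0.170), which turned to 0.13 without siMSI1 replicate 3. The mitochondrial RNA polymerase POLRMT and its cofactor TFB2M had 0.14 (adjusted p = 0.35) and 0.31 (adjusted p = 0.081), and the RNA-stabilising LRPPRC had -0.09 (adjusted p = 0.55).

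The list of the TCA cycle also holds genes of pyruvate dehydrogenase and pyruvate carboxylase. Of its 18 tested genes 1 rose and 1 fell, with a median of -0.039. PDHB, a subunit of pyruvate dehydrogenase, rose from 18.7 FPKM ± 0.683 to 26.0 ± 2.74 (log2 0.47, adjusted p = 0.0073), and FH, fumarate hydratase, fell from 60.9 FPKM ± 1.07 to 47.9 ± 0.630 (log2 -0.35, adjusted p = 0.0044). FH acts on the product of the SDH reaction. Of the SDH subunits SDHB rose, while the other 3 lay below 0 without a call. Whether neighbouring steps of the cycle differ was not tested. Both the PDHB and the FH call were lost without any one library but siMSI1 replicate 3. The differences were then 0.38 to 0.50 and -0.36 to -0.34. Of 20 alternative fits that kept the threshold, the PDHB call held in 13 and the FH call in 14. None of 13 coenzyme Q genes (median 0.017) and none of 23 membrane translocase genes (median 0.101) passed the threshold.

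**Figure D5:**
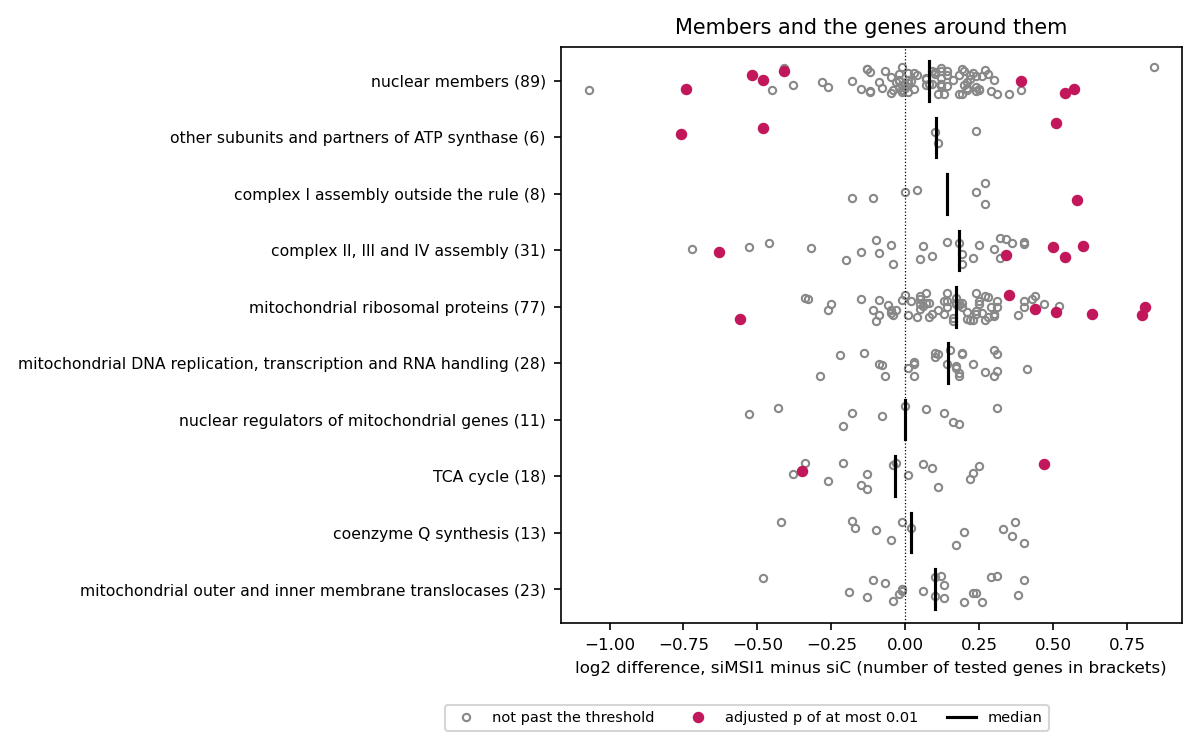
Log2 difference (siMSI1 minus siC) of the tested nuclear members and of the genes in 9 lists around them, one circle per gene, pink for an adjusted p of at most 0.01, with a black bar at the median of each list. Calls lie on both sides of 0 in the members, the ATP synthase partners and the complex II to IV assembly genes. The same holds for the mitochondrial ribosomal proteins and for the TCA cycle list, where the higher call is PDHB of pyruvate dehydrogenase. The lists of regulators, mitochondrial DNA and RNA handling, coenzyme Q and translocases hold none.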

How the data were processed

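The authors clipped reads with cutadapt 1.14, aligned them to GRCh38 (hg38) with HISAT2 2.1.0 and summarised reads per gene with featureCounts 1.5.3 and Ensembl gene models. They deposited FPKM, as 1 table with 6 library columns. How multi-mapping reads and strand were treated is not given in the sources used here. The table also holds the authors' edgeR fold changes and p-values, which were not used. Library scaling was 0.977 to 1.03.

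From FPKM and gene length, whole reads were recovered (100% of values, tolerance 0.01). FPKM call for a log-scale test, so limma 3.58.1 (R 4.3.3; lmFit, eBayes with trend and robust) was fitted to log2(FPKM + 0.1). Tested were 15069 genes whose mean reached 0.5 FPKM, without a replicate block, with Benjamini-Hochberg adjustment over all of them and a threshold of 0.01. The script was tested on simulated data. Floors of 3 reads cover counting error only. Positions came from GENCODE 44 (GRCh38), and promoters from RefSeq.

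Members and gene lists were chosen with earlier results of these data known. Counts cover all members, but 1 member is not reported here. Named were the other called members, the mitochondrial members, the most abundant member of each complex, the isoform pairs and c-ring genes, MSI1, up to 3 called genes of each list, and 8 regulators. NDUFB2, NDUFB8, NDUFC1, COX7C, SDHC, ATP5A1, ATP5S, ATP5EP2, NDUFV1 and YY1 were chosen after their values were seen. So were NDUFV2, NDUFA3, NDUFA7, NDUFA13, ATP5L2, the readthrough rows and the marker genes listed at 0. The 21 alternatives varied the added value, filter, scaling, moderation, threshold, block, read-based model, length, GC and each library.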

Additional observations from a re-analysis of the deposited data

How the results depend on the processing

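The 21 alternatives were read for the count of called members and the median difference of the nuclear members. Against 7 called members, the count was 3 without a filter on low genes, 2 with plain variance moderation, 13 at an adjusted p of 0.05, 12 with voom on recovered reads, 33 with voom and a replicate block (24 higher) and 13 with the GC trend removed. Over all genes these settings called 792, 847, 3787, 2684, 4634 and 3253, against 1655. Leaving out 1 library at a time gave 1 to 6 members. The other alternatives stayed within 1.5 times the count. The median difference of the nuclear members, 0.084, kept its sign, between 0.047 and 0.1. The cause of these shifts was not tested, beyond the fewer libraries and the looser threshold.

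The labels give both groups the replicate numbers 1 to 3. Deviations of same-numbered libraries correlated at -0.0661, 0.0783 and 0.0830, so the numbers were not taken as pairs. Yet 2 of 3 numbers gave the best match of their siC library. On the second principal component, libraries 1, 2 and 3 stood at 2.4, -15.4 and 13.1 in siC. In siMSI1 they stood at -0.941, -34 and 34.8, the same order by number. Whether same-numbered libraries share a source of variation was not tested. With the replicate block 10 members were called (5 higher, 5 lower), among them the 7, and 2250 of all genes.

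Of the named genes tested (56, without YY1), directions turned in 29 cases, all in genes that were not called. With median centring UQCR10 and ATP5G3 were at 0.01. With the length trend removed ATP5G3 was at 0.02, and with the GC trend removed ATP5G3 was at 0.02 and COX4I1 at -0.01. With quantile normalization COX4I1 was at -0.02. Leaving out 1 library at a time, the values ran from -0.11 to 0.01 for SDHA, -0.04 to 0.04 for UQCR10, -0.11 to 0.03 for CYCS, -0.06 to 0.10 for COX4I1, -0.04 to 0.01 for COX6A1, -0.10 to 0.05 for COX6B1, -0.11 to 0.01 for ATP5G1, -0.04 to 0.05 for ATP5G3, -0.21 to 0.13 for TFAM, -0.16 to 0.002 for LRPPRC, -0.07 to 0.08 for PPARGC1A and -0.09 to 0.05 for NDUFB8. Calls of named genes were lost in 95 cases and gained in 38, the sign kept. The listing of the mitochondrial rows at 0 precedes all alternatives.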
